A study of Mus musculus with 25 samples.

Results

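MII oocytes from wild-type (WT) and Smarca4 knockout (KO) females were compared over 5 RNA libraries, 3 WT and 2 KO, out of the 25 libraries of the series. An MII oocyte is an ovulated egg arrested at the second meiotic metaphase. The unit is FPKM, fragments scaled to transcript length and library total, and the 9839 of 24412 gene symbols with a value of 1 or more in 2 or more of the 5 libraries were tested. Per the labels' protocols, females were 8 to 12 weeks old and were superovulated with 7 IU of PMSG and, 48 h later, 5 IU of hCG. They were either B6D2F1 hybrids or C57BL/6 animals carrying Smarca4 flox/flox and Gdf9 Cre, a recombinase driven by an oocyte promoter. The labels do not assign a strain to single libraries, so strain and genotype cannot be told apart. They also do not say that replicates are separate females, so the p-values rest on a spread between libraries that may be only technical. The comparison asks which maternal RNAs differ in eggs that grew without Smarca4, before fertilisation.

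SMARCA4, also called BRG1, is an ATPase of the BAF complex, which uses ATP to slide or evict nucleosomes and so opens enhancers and promoters. The Gdf9 promoter is active in growing oocytes, where most of the maternal RNA store is made. A fully grown oocyte stops transcription, and during maturation a part of the store is deadenylated and degraded. RNA at MII therefore carries the history of both the growth phase and the clearance of transcripts.

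Levels below are FPKM rescaled between libraries, in library order, and differences are KO minus WT on the log2(FPKM + 1) scale, which understates the change of low genes. Called means an adjusted p below 0.05 (limma, Benjamini-Hochberg over all genes tested). The sum of deposited FPKM was 237383 to 252440 per library, and 15060 to 16124 genes were above 0. FPKM carries no read counts, so the depth is unknown, and fewer oocytes in a library cannot be told apart from less RNA per oocyte. Oocyte markers stood high in all 5 libraries. Gdf9 was at 1056 ± 24.0 (SD, n = 3) in WT and 1148 ± 71.6 (n = 2) in KO, and Bmp15 at 394.6 ± 16.7 and 397.1 ± 28.3. Of 34 cumulus and granulosa markers, 14 were listed at 0 in every library, Foxl2, Fst, Inha and Lhcgr among them. The highest were Cyp19a1, at 5.2 to 6.7, and Hsd17b7, at 4.3 to 5.5. Libraries differed in base composition. With genes ranked into 5 classes of transcript GC content, the median of KO replicate 1 lay 0.08 (log2) below the mean of the 5 libraries in the lowest class and 0.07 above it in the highest. WT replicates 1 and 2 leaned the other way, at 0.05 and 0.04 in the lowest class and -0.04 and -0.03 in the highest. WT replicate 3 (-0.02 and 0.02) and KO replicate 2 (0.02 and -0.01) leaned less.

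In KO oocytes 406 genes were called higher and 509 lower, 9.3% of the genes tested (4.13% higher and 5.17% lower). Most differences were small. The median was 0.36 among genes called higher and -0.40 among those called lower, and only 5 rose and 13 fell by at least 1 on the log2 scale. The groups did not overlap at all 915 called genes, and they did not overlap at 4338 of all genes tested (44.1%), with KO above WT at 21.6% and below it at 22.5%. A lack of overlap given below for a called gene therefore adds nothing to its call. The number of calls moved with the libraries. It was 299 without WT replicate 1, 223 without WT replicate 2, 457 without WT replicate 3, 753 without KO replicate 1 and 1612 without KO replicate 2. Of the 915 genes, 81 of the 406 higher and 109 of the 509 lower were called in each of these 5 fits, and these 190 are called stable below. A gene named below without that word lost its call when at least 1 library was left out. With all 25 libraries of the series sharing 1 estimate of the spread, 3 genes were called. Without the rescaling between libraries 251 were called higher and 818 lower, and the median of all genes moved from -0.00 to -0.05. On that scale the list medians of 0.02 to 0.04 printed below lie under 0, and those of mRNA clearance and Obox genes keep their sign, at 0.03 and -0.31.

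**Figure D1:**
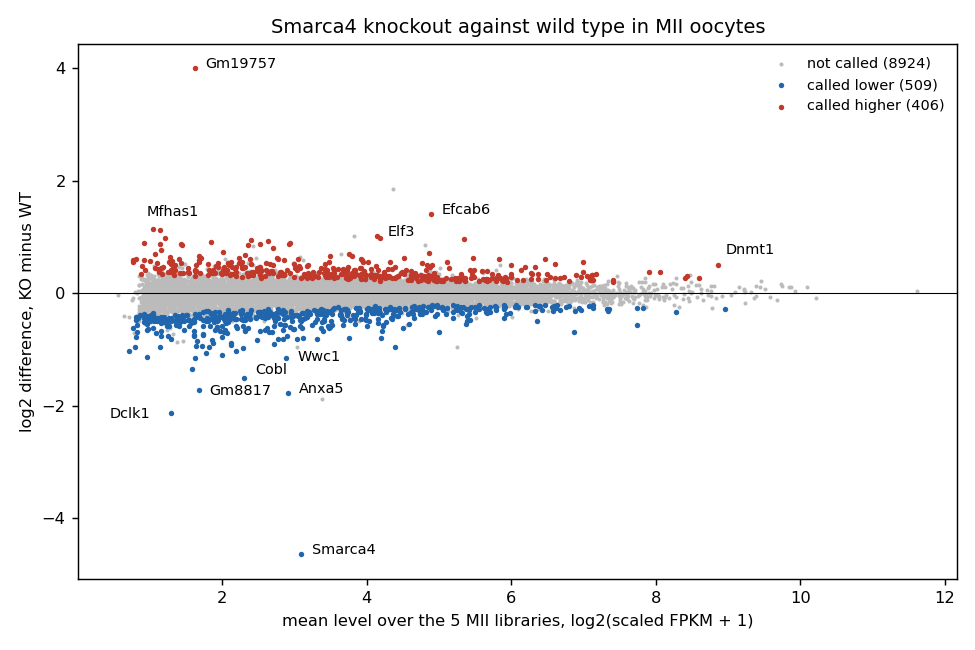
Log2 difference (KO minus WT, vertical) of each of the 9839 genes tested against its mean level over the 5 MII libraries (horizontal, log2(scaled FPKM + 1)); red points are the 406 genes called higher, blue the 509 called lower and grey the rest. Most called genes lie close to 0, and Smarca4, Gm19757, Dclk1 and Anxa5 lie far from it.

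Smarca4 (chromosome 9, 21616106 to 21704230, GRCm38) separated the genotypes. It was at 27.7, 29.4 and 32.5 in the WT libraries and at 0.235 and 0.236 in the KO libraries, a log2 difference of -4.64 ± 0.08 (SE; limma adjusted p = 7.531e-10). On this gene every library matched its label. Smarca2, the other ATPase of BAF complexes, was at 45.9 ± 0.674 (n = 3) in WT and 47.9 ± 5.23 (n = 2) in KO. Its difference of 0.06 ± 0.07 did not pass (limma adjusted p = 0.652).

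Genes with large differences after Smarca4 are introduced here with the sequence around the transcript start for 2 rises and 2 falls, since their RNA is near absent in 1 genotype or differs several-fold. Efcab6 and Mfhas1, which rose more than Hsd3b6, had no entry in the promoter set. A gene with several listed starts was read at the most upstream one. Each run is 300 bases of RefSeq GRCm38.p6, 5′ to 3′ on the strand of the gene, from 250 bases before to 50 after the start, with CG dinucleotides in capitals. Gm19757 lies at chr6:105492619-105492918, minus strand, Hsd3b6 at chr3:98814394-98814693, minus strand, Dclk1 at chr3:55242114-55242413, plus strand, and Anxa5 at chr3:36475838-36476137, minus strand.
Gm19757: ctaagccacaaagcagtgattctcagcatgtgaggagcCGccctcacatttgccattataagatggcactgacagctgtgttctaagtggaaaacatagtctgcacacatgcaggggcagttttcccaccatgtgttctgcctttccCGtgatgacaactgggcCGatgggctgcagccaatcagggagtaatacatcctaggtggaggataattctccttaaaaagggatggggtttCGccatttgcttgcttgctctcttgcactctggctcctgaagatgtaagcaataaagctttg
Hsd3b6: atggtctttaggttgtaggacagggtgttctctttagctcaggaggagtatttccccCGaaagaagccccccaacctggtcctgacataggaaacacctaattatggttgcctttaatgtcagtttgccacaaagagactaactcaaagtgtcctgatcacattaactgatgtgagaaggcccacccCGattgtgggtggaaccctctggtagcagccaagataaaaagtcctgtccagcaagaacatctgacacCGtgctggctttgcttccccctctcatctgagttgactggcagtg
Dclk1: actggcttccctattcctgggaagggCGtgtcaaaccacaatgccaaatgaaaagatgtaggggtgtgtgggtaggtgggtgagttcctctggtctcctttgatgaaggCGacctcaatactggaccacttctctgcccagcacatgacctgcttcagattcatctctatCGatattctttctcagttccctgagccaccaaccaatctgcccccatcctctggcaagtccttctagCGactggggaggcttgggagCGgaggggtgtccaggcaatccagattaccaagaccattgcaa
Anxa5: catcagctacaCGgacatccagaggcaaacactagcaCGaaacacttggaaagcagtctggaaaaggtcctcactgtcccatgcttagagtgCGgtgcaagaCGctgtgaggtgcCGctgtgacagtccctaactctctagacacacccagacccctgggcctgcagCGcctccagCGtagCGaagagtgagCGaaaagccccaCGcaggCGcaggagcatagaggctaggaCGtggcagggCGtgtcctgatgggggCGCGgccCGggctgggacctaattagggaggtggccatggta
These runs hold 4, 3, 5 and 16 CG dinucleotides, against a median of 7 over 27025 RefSeq promoters of the same length and of 21 over the 7901 promoters of genes tested here. A few short motifs were searched on both strands. CCAAT, found in 38.0% of all promoters and 40.7% of those of tested genes, is in the runs of Gm19757 and Dclk1. GGGCGG, which contains a CG and is found in 35.9% and 64.5%, is in that of Gm19757. The motif TATAAA, found in 14.2% and 7.06%, is in none of the 4. Neither is TGANTCA, found in 7.92% and 4.42%. A match describes letters only and is no evidence of a bound factor.

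Among the rises, Gm19757, a long non-coding RNA on chromosome 6 (105481266 to 105492668), was at 0.0118, 0.0169 and 0.0162 in WT and at 14.1 and 16.5 in KO (log2 difference 4.00 ± 0.09, limma adjusted p = 5.917e-09). It was close to 0 in every WT library and well expressed in both KO libraries. Efcab6, an EF-hand protein gene on chromosome 15 (83866712 to 84075025), rose from 18.8, 18.9 and 19.6 to 55.4 and 49.8 (1.41 ± 0.06, limma adjusted p = 2.538e-06). Mfhas1, which encodes a leucine-rich repeat protein, rose from 0.452, 0.564 and 0.510 to 2.42 and 2.25 (1.15 ± 0.09). Hsd3b6, a hydroxysteroid dehydrogenase of steroid synthesis, rose from 0.514, 0.719 and 0.606 to 2.54 and 2.52 (1.13 ± 0.10). Gm19757, Mfhas1, Hsd3b6, Tns3, Snora44 and Gm1564 did not reach an FPKM of 1 in 2 or more libraries but for KO, so they were tested through the group in which they were high. Elf3, an ETS transcription factor of epithelia, went from 14.2, 10.4 and 12.6 to 26.0 and 25.9 (1.02 ± 0.11).

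Further rises were smaller. Tns3, a tensin that links integrins to actin, rose from 0.766 ± 0.0175 (n = 3) to 2.51 ± 0.223 (n = 2). Dynlt1b, a dynein light chain with near-identical copies, was at 12.97 ± 2.05 in WT and 26.3 ± 0.199 in KO, and reads may be split among those copies. B3gnt7, a glycosyltransferase, rose by 0.95, Cttnbp2, a cortactin-binding protein, by 0.91, and Erdr1, which lies at the end of the X chromosome in a repeated region, by 0.92. Fam57a, Gm1564 and the small RNAs Snora44 and Scarna2 rose by 0.88 to 0.90. All of these rises, from Gm19757 to Scarna2, were stable.

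Among the falls, Dclk1, a doublecortin-like kinase that binds microtubules (chromosome 3, 55242303 to 55539068), was at 2.67, 4.74 and 3.05 in WT, at 0.0187 in KO replicate 1 and listed at 0 in KO replicate 2 (-2.12 ± 0.17, limma adjusted p = 0.000354). Anxa5, a calcium-dependent phospholipid-binding annexin (chromosome 3, 36448923 to 36475887), fell from 11.5, 10.9 and 11.6 to 2.21 and 3.08 (-1.77 ± 0.10, limma adjusted p = 2.025e-05). Gm8817, a long non-coding RNA of the X chromosome (167063231 to 167070370), fell from 3.25, 4.63 and 4.70 to 0.701 and 0.447 (-1.71 ± 0.14). In all of these genes each KO library was below every WT library.

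Cobl, an actin nucleator (chromosome 11, 12236676 to 12465022), fell from 5.70, 6.94 and 6.96 to 2.07 and 1.27 (-1.51 ± 0.13). Gli3, a transcription factor of the Hedgehog pathway, fell from 3.36 ± 0.541 to 0.714 ± 0.134 (-1.34), and Syde1, a RhoGAP, from 3.24 ± 0.0867 to 0.907 ± 0.162 (-1.15). Wwc1, or KIBRA, an upstream member of the Hippo pathway, was at 8.57, 9.20 and 9.78 in WT and 4.45 and 2.89 in KO (-1.14 ± 0.13, limma adjusted p = 0.00121). Zfp710, a zinc finger protein gene, fell by 1.10, and Tnfsf13b, which encodes the cytokine BAFF, fell by 0.98. Atxn10 fell from 1.89 ± 0.0505 to 0.487 ± 0.0374. Prelid2 fell from 1.505, 1.10 and 1.002 to 0.146 in KO replicate 1 and a listing at 0 in KO replicate 2. Smarca4, Dclk1, Gm8817, Gli3, Syde1, Emx2, Prelid2 and Atxn10 reached the filter, which used FPKM before rescaling, through WT alone.
The homeobox gene Emx2 (-1.14), the glycoprotein hormone gene Stc2 (-1.06) and Gm4907 (-1.03) were called as well, but each lost its call when 1 library was left out, with adjusted p reaching 0.0646, 0.137 and 0.124 in limma. The other 12 of the 15 largest falls were stable.

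**Figure D2:**
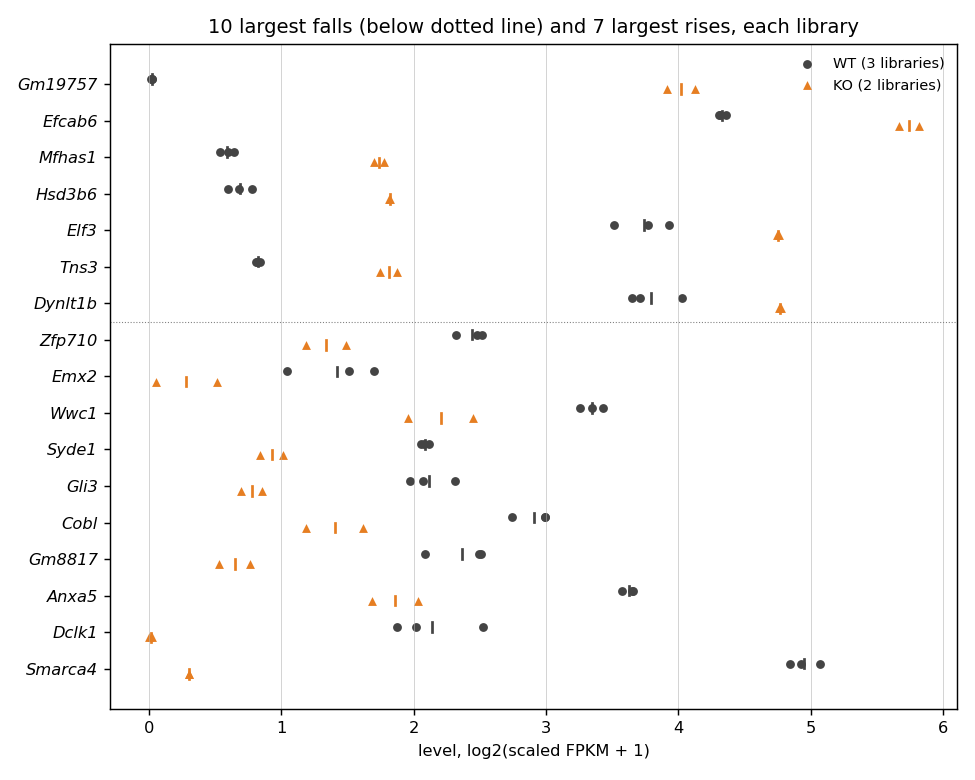
Level (log2(scaled FPKM + 1)) in each library of the 10 genes with the largest falls and the 7 with the largest rises among called genes; dark circles are the 3 WT libraries, orange triangles the 2 KO libraries, and the short bars are group means. The KO triangles lie clear of the WT circles in every gene shown, and in Dclk1 they lie at 0.

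Some abundant maternal RNAs differed by smaller amounts. Dnmt1, the maintenance DNA methyltransferase stored by the oocyte (chromosome 9, 20907206 to 20959888), was at 404.6, 394.7 and 411.5 in WT and at 544.1 and 597.7 in KO (0.50 ± 0.06, limma adjusted p = 0.000981). The KO libraries lay above all WT libraries, and the call was stable. Obox2, an oocyte homeobox gene, was at 571.3, 533.5 and 511.4 in WT and 416.6 and 470.2 in KO (-0.28 ± 0.07, limma adjusted p = 0.0309), with the call lost without 3 of the 5 libraries in turn. Oosp1, an oocyte-secreted protein, rose from 357.9 ± 12.7 to 430.2 ± 4.70 (0.27). Lamb1, a laminin chain, rose from 315.9 ± 7.18 to 391.7 ± 34.9 (0.31), and Txnip, a thioredoxin-binding protein, from 313.3 ± 8.30 to 379.8 ± 10.2 (0.28). These 3 lost their calls without some libraries, with limma adjusted p up to 0.0723, 0.0759 and 0.0606.

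BAF subunits were measured as a group because SMARCA4 is their ATPase. Of 25 tested, 4 were higher and 2 lower (median 0.05, against -0.00 over all genes tested). The share called was 24%, against 9.3% over all genes tested, which stands beside the list counts below as well. The falls were Smarca4 itself and Dpf3, which encodes a histone-reading accessory subunit. Dpf3 was at 67.6, 64.8 and 67.1 in WT and 53.5 and 49.1 in KO (-0.37 ± 0.06, limma adjusted p = 0.00639), below WT in both KO libraries and stable. The rises were Arid1b and Arid2, DNA-binding subunits of different BAF assemblies, Ss18 and Gltscr1l, at 0.26 to 0.28 each. None of these 4 was stable, their adjusted p reaching 0.0848 to 0.145 in limma, and without rescaling 1 of them was called. Among 34 other chromatin remodelers 0 were called higher by limma (6 at an unadjusted p under 0.05) and 1 lower, the DNA methylation helper Hells (-0.33).

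Oocyte factors, the zona, growth factor and secreted proteins of the egg, held 4 higher and 2 lower of 41 tested (median 0.02). Oas1d, an oligoadenylate synthetase relative of the oocyte, was the stable one, at 233.6, 237.3 and 249.5 in WT and 324.5 and 300.5 in KO (0.38 ± 0.06, limma adjusted p = 0.00464). Both KO libraries were above WT. Its neighbour Oas1h rose by 0.24, and reads of such close relatives may be split between them. Kit, the receptor of growing oocytes, fell by 0.21. The maternal effect and subcortical complex genes, needed for the first cleavages, held 1 higher and 1 lower of 27.

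Of 39 regulators of mRNA clearance tested, 4 were called higher and 0 lower by limma (12 and 1 at an unadjusted p under 0.05), with a median of 0.08. The share called, 10.3%, is near the 9.3% over all genes. Leaving out each library gave 3 to 7 higher and 0 lower. Zfp36l2, an AU-rich element binding protein that drives mRNA decay in oocytes, was at 5.22, 5.63 and 4.69 in WT and 8.55 and 8.02 in KO (0.59 ± 0.09, limma adjusted p = 0.00438). Cnot7, a catalytic deadenylase of the CCR4-NOT complex, was at 121.8, 106.9 and 113.2 in WT and 146.2 and 152.0 in KO (0.39 ± 0.06, limma adjusted p = 0.00735). In both genes the KO libraries lay above all WT libraries, as at every gene called higher, and both calls were stable. Cnot8, another such deadenylase, rose by 0.54 and Mettl3, the m6A methyltransferase, by 0.23, without stability (limma adjusted p up to 0.0578 and 0.153).

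Genes of mRNA storage and translation control, which hold maternal RNA silent until it is needed, were called at 2 higher and 1 lower of 41 (median 0.02), and all 3 calls were stable. Piwil1, a PIWI protein of the piRNA pathway, rose from 10.2, 10.9 and 10.7 to 18.2 and 16.6 (0.67 ± 0.07, limma adjusted p = 0.000757). Cpeb1, which binds the cytoplasmic polyadenylation element, rose from 62.6, 59.8 and 62.0 to 76.6 and 87.8 (0.41 ± 0.07, limma adjusted p = 0.00657). Pabpc1, a poly(A)-binding protein, fell from 4.64, 3.53 and 3.76 to 1.77 and 2.39 (-0.69 ± 0.12, limma adjusted p = 0.0099). The groups were apart in each of the 3.
The Obox genes, a homeobox cluster of the oocyte on chromosome 7, held 0 higher and 2 lower of 4 tested by limma (0 and 4 at an unadjusted p under 0.05; median -0.26), and all 4 differences were below 0. Obox7 was at 46.9, 48.5 and 42.6 in WT and 33.7 and 34.9 in KO (-0.41 ± 0.07, limma adjusted p = 0.00693) and was stable. The genes of this cluster resemble one another, so their separate levels are uncertain.

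Enzymes of DNA methylation and histone modification held 7 higher and 2 lower of 78 (median 0.04). Apart from Dnmt1, the stable calls were Zmynd11, a reader of methylated histone H3, and 2 falls. Zmynd11 rose from 7.02, 7.21 and 6.69 to 10.6 and 9.92 (0.50 ± 0.07, limma adjusted p = 0.00464). Kdm1b, the histone H3K4 demethylase that acts ahead of DNA methylation in growing oocytes, fell from 51.9, 47.0 and 46.2 to 32.2 and 36.9 (-0.47 ± 0.07, limma adjusted p = 0.0063). Pcgf1, a Polycomb group RING protein, fell from 128.2, 125.3 and 131.5 to 102.4 and 102.6 (-0.32 ± 0.05, limma adjusted p = 0.00654). Kdm6b, an H3K27 demethylase (0.47), and Setd1b, an H3K4 methyltransferase (0.40), were called without stability, at up to 0.0779 and 0.0755. Of 36 histone variants, linker histones and chaperones 1 was higher (H1fx, 0.42) and 1 lower (Nap1l4, -0.27), and of 51 replication-dependent histone genes 0 were higher and 3 lower by limma (4 and 6 at an unadjusted p under 0.05). The falls were in core histone genes of repeated families, Hist3h2ba (-0.62), Hist1h2bc (-0.50) and Hist1h2ag (-0.39).

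Genes of the meiotic machinery were called at 4.76% and 8.33% in the 2 lists that follow, against 9.3% of all genes. Of 42 genes of meiotic arrest and M-phase kinases 0 were higher and 2 lower by limma (2 and 6 at an unadjusted p under 0.05). The falls were Fbxo5, an inhibitor of the anaphase-promoting complex (-0.27), and Gsg2, the kinase haspin (-0.24). Of 60 cohesin, kinetochore and spindle genes 3 were higher and 2 lower (median -0.03). Espl1, separase, the protease that opens cohesin, was stable, at 24.6, 23.6 and 26.5 in WT and 36.3 and 32.9 in KO (0.46 ± 0.07, limma adjusted p = 0.00535). Tubg1, gamma-tubulin, rose by 0.35, Kif20a, a mitotic kinesin, by 0.26, and Cenpc1 and Nusap1 fell by 0.38 and 0.22.

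Genes of egg activation, which carry the calcium response to sperm, held 3 higher and 1 lower of 27. Calr, calreticulin, a calcium-binding chaperone of the endoplasmic reticulum, rose from 214.7, 209.2 and 217.8 to 283.7 and 275.4 (0.38 ± 0.05, limma adjusted p = 0.00232). Itpr2, an IP3 receptor channel, fell from 11.3, 13.6 and 12.0 to 7.28 and 8.31 (-0.59 ± 0.09, limma adjusted p = 0.0052). Both were stable, with no overlap of the groups. Atp2a2, the calcium pump of the reticulum, rose by 0.23 and Pdia3 by 0.21, with limma adjusted p up to 0.144 and 0.141 when a library was left out.
The heat shock and unfolded protein list held 8 higher and 2 lower of 44, with a median of 0.02 and 23 differences above 0. The members named are the 6 called ones with the largest differences, and neither fall is among them. The share called was 22.7%, against 9.3% of all genes tested, and 3 members were tested through 1 group only. Leaving out 1 WT library gave 3 to 6 higher and 0 lower. Pdia6, a disulfide isomerase of the reticulum, rose from 44.9, 46.8 and 49.0 to 71.4 and 73.1 (0.61 ± 0.06, limma adjusted p = 0.000597). Hspa1b, an inducible Hsp70 with a near-identical copy, rose from 2.29 ± 0.275 to 4.48 ± 0.427 (0.74 ± 0.10, limma adjusted p = 0.00287). Pdia6, Hspa1b and Calr were stable, and Ddit3 (0.41), Ddit4 (0.32) and Pdia4 (0.27) were called without stability.

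**Figure D3:**
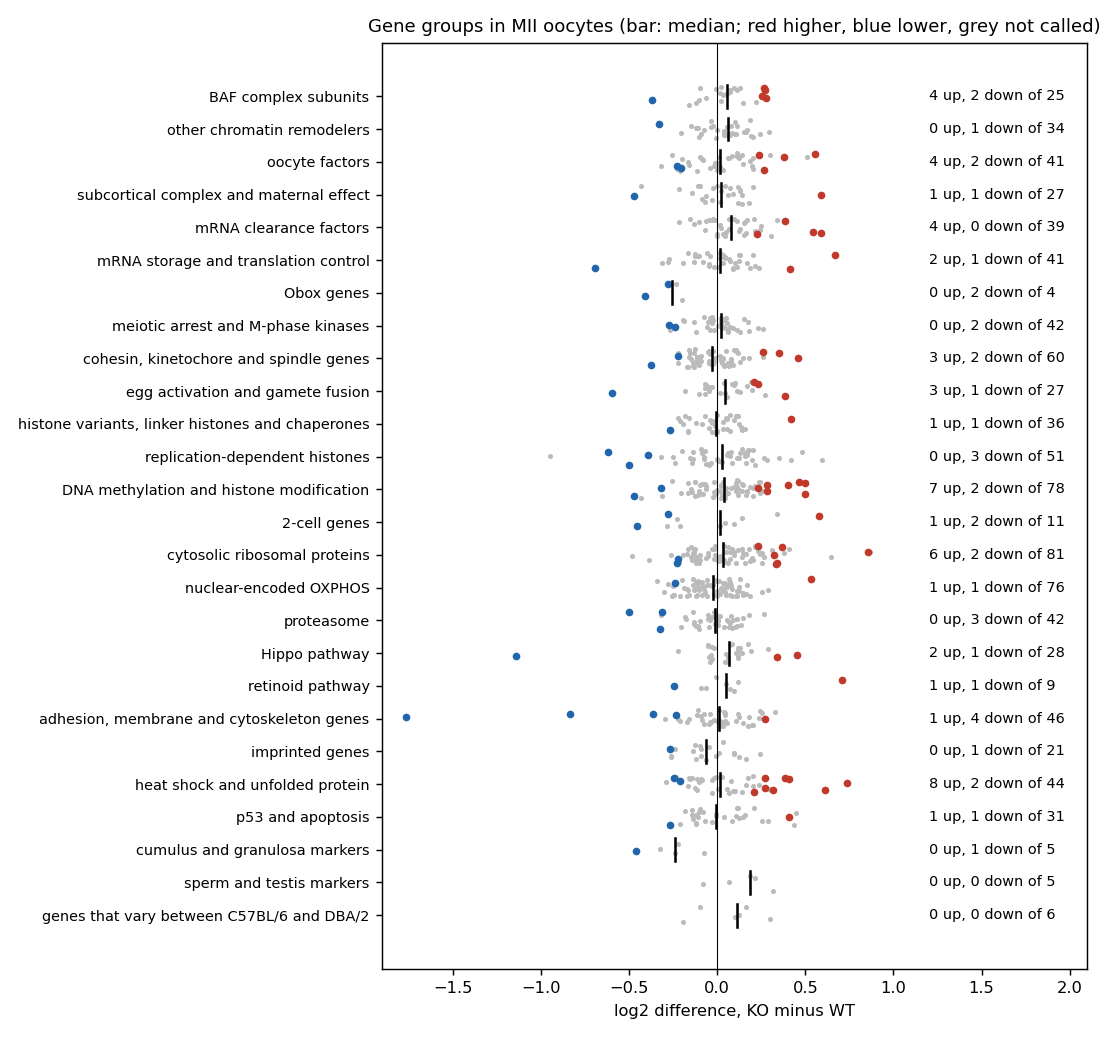
Log2 difference (KO minus WT) of each tested member of the gene groups with at least 4 tested members, 1 row per group; red points were called higher, blue lower, grey not called, and black bars are medians over the members drawn. Smarca4 (-4.64) is counted in its group but not drawn. Medians lie within 0.1 of 0 except in the small Obox, cumulus, sperm and strain groups, and the right-hand text gives the counts.

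Housekeeping groups are read against the 1.93% of all genes tested that were stable. Of 81 cytosolic ribosomal protein genes 6 were higher and 2 lower, and 1 was stable, Rps19, at 3.10, 2.82 and 3.26 in WT and 6.29 and 6.39 in KO (0.85 ± 0.08, limma adjusted p = 0.000678). Ribosomal protein genes have many processed copies, and reads may be split. Of 76 nuclear-encoded OXPHOS genes 1 was higher and 1 lower. Of 42 proteasome genes 0 were higher and 3 lower by limma (2 and 8 at an unadjusted p under 0.05). Psmd14, the deubiquitinase of the proteasome lid, fell from 11.01, 10.97 and 11.67 to 6.93 and 8.44 (-0.50 ± 0.09, limma adjusted p = 0.00993) and was stable, unlike Psmc6 and Psmg1. Of 62 small nucleolar and Cajal body RNA genes 6 were higher and 0 lower by limma (3 lower at an unadjusted p under 0.05), with a median of 0.09. That share called is near the 9.3% over all genes tested.

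Signalling and adhesion groups held single genes with large changes. In the Hippo group of 28 tested, Llgl1 (0.45) and Pard3 (0.34), both of cell polarity, were higher without stability and Wwc1 lower. In the retinoid group of 9 tested, Aldh1a2, which makes retinoic acid, was at 22.7, 24.8 and 21.2 in WT and 37.7 and 38.2 in KO (0.71 ± 0.07, limma adjusted p = 0.000716). It was stable, while Rdh10, which makes its substrate, fell by 0.25 and was not. In the adhesion, membrane and cytoskeleton group 1 of 46 was higher and 4 lower. Besides Anxa5 the stable fall was Dip2c, from 6.36, 6.20 and 5.57 to 3.13 and 2.79 (-0.83 ± 0.09, limma adjusted p = 0.000757). Actg1, cytoplasmic gamma-actin, fell by 0.37 and Anxa7 by 0.23. Of 21 imprinted genes 0 were higher and 1 lower by limma (0 and 4 at an unadjusted p under 0.05), and of 31 p53 and apoptosis genes 1 was higher (Trp73, 0.41) and 1 lower (Mdm4, -0.27). Of the 2-cell genes, which mark the activated embryonic genome, 11 of 50 in the files reached the filter, with Cphx1 higher and Tcstv3 and Sp110 lower, none of them stable.

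Markers of other cells were mixed. Of 34 cumulus and granulosa markers 5 were tested, with 0 higher and 1 lower by limma (Ptgr1, -0.46; 0 and 4 at an unadjusted p under 0.05), and all 5 differences were below 0. The summed level of all 34 was 20.1 to 22.2 in WT and 16.9 to 17.8 in KO. Of 5 sperm and testis markers and 3 blood markers tested, 0 were called by limma (2 sperm and testis markers and 0 blood markers at an unadjusted p under 0.05). These 2 were Prm2 (0.31) and Tekt2 (0.22). Prm2 was at 6.10, 6.19 and 7.11 in WT and 7.81 and 8.75 in KO. The summed level of all 28 sperm and testis markers was 76.6 to 79.5 in WT and 81.1 to 88.2 in KO, most of it from Odf2, at 61.9 to 72.2, and 6 of them, Izumo1 and Tnp2 included, were listed at 0 in all 5 libraries. That of all 29 blood, immune and endothelial markers was 23.3 to 24.2 in WT and 24.2 to 24.3 in KO, with Pecam1 at 12.8 to 13.9. The haemoglobin genes Hba-a1, Hbb-bs and Hbb-bt were among the 13 of these at 0 in every library. Hba-a2 was at 0, 0.061 and 0 in WT and at 0.114 and 0.271 in KO. Of 10 genes that vary between C57BL/6 and DBA/2, 6 were tested and 0 called by limma (1 at an unadjusted p under 0.05). They include Glo1, at 2.09 ± 0.0947 in WT and 1.70 ± 0.0870 in KO, and Hc, at 1.36 ± 0.171 and 1.93 ± 0.536, as well as Btbd9 (-0.10), Myo5a (0.10), Alad (0.13) and Gpnmb (0.17). The part of these cells, or of strain, in the differences was not tested.

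A conditional allele can carry linked sequence from its origin, so the genes around Smarca4 were described apart. Within 10 Mb of it 79 genes were tested, 6 higher (7.59%, against 4.13% of all genes tested) and 4 lower (5.06%, against 5.17%). Nearest were Kank2 (0.48), Ap1m2 (0.23), Elavl3 (0.28) and Pigyl (0.33), and then Dnmt1, at 0.709 Mb. Naalad2 (0.34) rose, and Dpy19l1 (-0.31) and Ntm (-0.49) fell, farther away. Dnmt1 was the stable one of these 8, and the part of linked sequence was not tested.

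On the X chromosome, a pattern seen after the values were known, 35 of 303 tested genes were lower (11.6%) and 6 higher (1.98%). Over the autosomes 471 of 9501 were lower (4.96%) and 399 higher (4.20%). Over all 9839 genes tested 109 lower (1.11%) and 81 higher (0.823%) calls were stable. On the X chromosome stable calls numbered 9 lower and 2 higher of 303. Among them were Nsdhl, a cholesterol synthesis enzyme, at 10.4, 9.66 and 9.43 in WT and 4.90 and 5.64 in KO (-0.79 ± 0.08, limma adjusted p = 0.000757), and Cd99l2, at 7.33, 8.13 and 6.93 in WT and 2.91 and 4.26 in KO (-0.90 ± 0.12, limma adjusted p = 0.00311). In both genes the KO libraries were below all WT libraries. X-linked transcripts had a median GC content of 44.8%, against 49.1% over autosomes, and transcript GC moved with the KO difference. Genes called higher had a median of 52.3%, those called lower 47.2% and all tested 49.0%. With transcript GC taken out of each library, 37 X-linked genes were lower (12.2%, against 6.39% of all genes tested) and 19 higher (6.27% against 5.49%). Without KO replicate 1, 20 were lower (6.60% against 4.11%) and 14 higher (4.62% against 3.55%). In both settings the X-linked share of higher calls, below that of all genes in the main fit, was above it. The same was seen without WT replicate 1 and with MII and PN3 in 1 fit, whose values follow. The X-linked share of lower calls stayed above that of all genes in each of these settings. Lower calls on the X chromosome numbered 17 without WT replicate 1 (5.61% against 1.85%), 11 without WT replicate 2 (3.63% against 1.26%), 18 without WT replicate 3 (5.94% against 2.60%) and 62 without KO replicate 2 (20.5% against 8.92%). Higher calls in the same order numbered 4, 3, 4 and 12 (1.32%, 0.99%, 1.32% and 3.96%, against 1.19%, 1.01%, 2.04% and 7.46%). With MII and PN3 in 1 fit 12 were lower (3.96% against 1.38%) and 5 higher (1.65% against 1.14%), and of the 3 genes that limma called with all 25 libraries in 1 fit 0 were X-linked. The part of base composition in the pattern was not tested beyond these values.

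**Figure D4:**
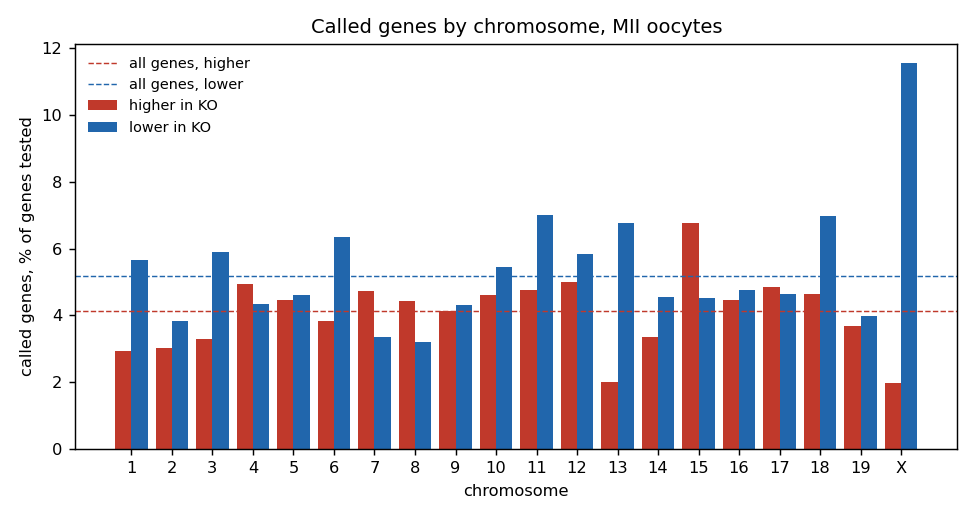
Share of tested genes called higher (red bars) and lower (blue bars) in KO on each chromosome, in percent; dashed lines are the shares over all genes, 4.13% and 5.17%. The X chromosome has the tallest blue bar, 11.6%, and the shortest red one, 1.98%.

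The same genes were then read in PN3 zygotes, fertilised eggs with pronuclei, from 4 KO and 4 WT libraries of the same design. These share no library with the MII groups, but strain is unknown there too. Of the 406 genes higher at MII, 391 passed the filter at PN3, and 299 of them (76.5%) had a PN3 difference above 0, against 51.0% of all genes tested at both stages. Of the 509 lower at MII, 488 passed, and 358 (73.4%) were below 0. The PN3 medians, 0.13 and -0.11, stand beside 0.36 and -0.39 for the same genes at MII, where the genes were chosen, so the sizes cannot be compared. Mfhas1 (1.15 at MII, 1.39 at PN3), Aldh1a2 (0.71 and 0.80), Gm8817 (-1.71 and -1.77), Dip2c (-0.83 and -0.88) and Wwc1 (-1.14 and -0.96) had differences of the same sign at both stages. Whether the KO difference itself changed between stages was tested as an interaction, which called 25 of 10176 genes (0.246%), 13 more positive and 12 more negative at MII.

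**Figure D5:**
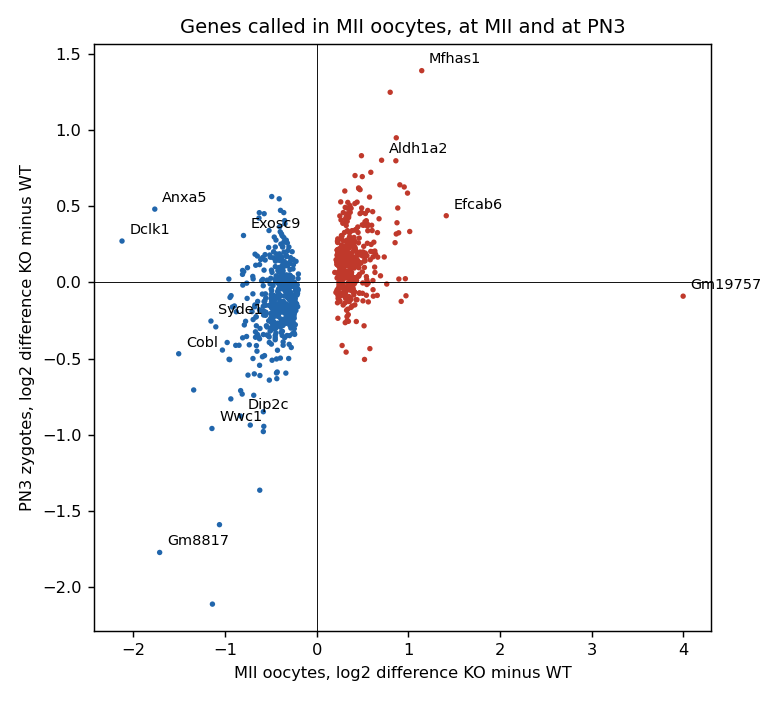
Log2 difference (KO minus WT) in PN3 zygotes (vertical) against that in MII oocytes (horizontal) of genes called at MII and measured at PN3, Smarca4 left out; red points were called higher and blue lower at MII. Of the red points 299 lie above 0 at PN3 and of the blue 358 below 0, while Gm19757, Anxa5 and Dclk1 do not follow.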

How the data were processed

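RNA of MII oocytes was read by stranded, ribosomal RNA-depleted sequencing in pairs of 150 bp, per the labels' protocols. The authors deposited 1 FPKM value per gene symbol and library. The tools listed in the submitters' processing notes are Trim Galore 0.4.5, HISAT2, StringTie and HTSeq, beside the builds mm10 and GRCm38; their roles, and any use of strand in making the values, are not stated there. Low FPKM values showed no whole-read steps, so no counts were recovered.

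Libraries were rescaled by the median ratio over the 9151 genes that reached 1 FPKM in all 5 libraries, and log2(FPKM + 1) was fitted for the MII libraries alone with limma 3.58.1 (R 4.3.3; trended variance, robust prior, 3 residual degrees of freedom), tested on simulated data. The interaction fit held 13 libraries. Named genes were Smarca4, Smarca2, the 15 largest rises and falls among called genes whose groups did not overlap, the 5 called genes of highest level, up to 6 called genes of each list, the genes that vary between strains, and up to 8 called genes within 10 Mb of Smarca4. The rule also allowed the members of highest level in each list. A gene that this rule names is not reported here. Nsdhl and Cd99l2 were chosen after their values were seen. The members and lists were chosen with earlier results of these data known. Positions and promoters came from RefSeq GRCm38.p6 (99.6% of tested genes matched by symbol) and transcript GC from GENCODE M21.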

Additional observations from a re-analysis of the deposited data

Results flagged for a closer look

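The difference between KO and WT changed between MII oocytes and PN3 zygotes, by the interaction test in limma, in 11 genes that follow. The value is the MII difference minus the PN3 difference (log2). Gm19757 gave 4.07 (4.00 at MII, -0.09 at PN3, adjusted p = 0.000285), Dclk1 -2.39 (-2.12 and 0.27, adjusted p = 0.00153) and Anxa5 -2.24 (-1.77 and 0.48, adjusted p = 0.00015). The PN3 difference of Gm19757 was near 0 (SE 0.27) and that of Dclk1 had an SE of 0.16, so their signs at PN3 are not settled. In Anxa5 (SE 0.13 at PN3) the differences at the 2 stages had opposite signs. Exosc9, an exosome subunit gene near Anxa5, gave -1.10 (-0.80 and 0.31, adjusted p = 0.0151), and Ppia, cyclophilin A with many processed copies, -0.87 (-0.40 and 0.47, adjusted p = 0.0232). Cobl gave -1.03 (-1.51 and -0.47, adjusted p = 0.0416) and Syde1 -0.90 (-1.15 and -0.25, adjusted p = 0.0234), both below 0 at both stages. Among positive values, Cbfa2t3, a transcriptional corepressor, gave 1.03 (0.52 and -0.51, adjusted p = 0.0387), the clock gene Per1 0.80 (0.52 and -0.28, adjusted p = 0.0431) and Midn 0.60 (0.35 and -0.25, adjusted p = 0.0127). Hsd3b6 gave 0.97 (adjusted p = 0.0172), with 1.13 at MII and a level under the filter at PN3.

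The interaction count of 25 genes depended on single libraries. Leaving out KO_MII replicate 1 gave 3, WT_MII replicate 2 gave 5, and WT_MII replicate 3 gave 11. Among PN3 libraries, 15 were called on leaving out WT replicate 1, 11 for WT replicate 3, 16 for WT replicate 4 and 11 for KO replicate 3. Exosc9, Cbfa2t3, Per1, Ppia and Midn were named after their values were seen.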

How the results depend on the processing

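The count of called genes, 915, was 1069 as deposited (251 higher, 818 lower), 958 as TPM, 903 and 911 with pseudocounts of 0.1 and 5, 859 with an FPKM of at least 1 in all 5 libraries, 627 without trend and robust prior and 1169 with transcript GC taken out, the last chosen after seeing the data. It was 168 with no filter on low values, where 17601 genes were tested, 583 with library weights, 248 with MII and PN3 in 1 fit and 3 with all 25 libraries in 1 fit. Leaving out 1 library gave 223 to 1612. For the interaction, the count of 25 was 28 as deposited, 26 with a pseudocount of 0.1 and 22 with the filter in all 13 libraries, and 3 to 30 without 1 library. The cause of these moves was not tested.

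With a replicate block the MII count was 1215 (548 higher, 667 lower, 1 residual degree of freedom) and the interaction count 56. The deviations of libraries with the same number from their group means correlated at -0.14 (replicate 1) and 0.06 (replicate 2). With 2 KO libraries, the KO deviations mirror each other. These values therefore cannot tell whether libraries of the same number were handled together. Leaving out 1 library moved the difference of Smarca2, which was not called, between -0.052 (without KO_MII replicate 1, a reversed sign) and 0.165. Some list members of highest level, not called either, also changed sign, Odf2 among them (-0.034 to 0.170). No called gene named by the rule reversed under the settings run. Smarca4 is out of the fit that asks for an FPKM of 1 in all 5 libraries. When a KO replicate is left out, the remaining one is taken to vary as the WT libraries do. Depth is unknown, so what a low FPKM can show is unknown too. With 2 KO libraries the spread within KO rests on 1 pair.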

Other observations

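Called genes in the same direction were also grouped along the genome, in windows of at most 1 Mb holding at least 4 such genes, a description made after the values were seen and with no test. Most of these windows held higher genes, and only some of them are given here. Over all genes tested 4.13% were higher and 5.17% lower. A window starts and ends at a called gene, which raises its share. On chromosome 2, from 180179755 to 180456226, 4 of 5 tested genes were higher, Cables2 and Slco4a1 among them. On chromosome 11, from 3649189 to 4345801 (starts of the first and last gene, GRCm38), 7 of 14 tested genes were lower in KO, among them Morc2a, Tcn2 and Hormad2, the last a meiotic chromosome axis gene. On chromosome 7, from 24267984 to 25219849, 7 of 20 were higher, among them Phldb3, Cd177 and Rps19. On chromosome 9, from 21294615 to 22156846, a window that holds Smarca4, 4 of 23 were higher, Ap1m2, Kank2, Elavl3 and Pigyl. Anxa5 and Exosc9 lay in a window of chromosome 3 in which 4 of 7 genes were lower, with 4932438A13Rik and Nudt6. On chromosome 17, from 21962559 to 22776230, the zinc finger genes Zfp943, Zfp944 and Zfp946 and Gm16386 were lower, 4 of 7 tested. In a window of the X chromosome, from 72381870 to 73214321, 5 of 12 were lower, among them Magea10, Nsdhl and Xlr3a. Whether these windows lie where the strains differ was not tested.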
